A study of Mus musculus with 6 samples.

Results

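Endothelial cells line the blood vessels of the brain and form the blood-brain barrier, and 10 genes of these cells were followed here in the brains of newborn mice given testosterone propionate (TP, an ester of testosterone) or sesame oil alone. The genes were Cldn5, Pecam1 and Cdh5 of the cell junctions, Slc2a1, Mfsd2a and Slco1c1 of transport across the barrier, and the receptors Flt1, Kdr, Tek and Tie1. Every probe set that the array annotation pairs with 1 of these genes alone was taken, which gave 16 of the 45101 probe sets on the array and 10 of 18193 genes with such a probe set. Flt1 has 4 of them, Slc2a1 has 3, Cdh5 has 2 and the other members have 1 each, so the probe sets of Flt1, Slc2a1 and Cdh5 share a target gene.

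RNA came from whole brains of C57BL/6 mice (C57BL/6J in the treatment protocol), taken on postnatal day 6. TP mice had received 1 mg of TP in 20 µL of sesame oil into the peritoneum on postnatal day 2, and vehicle mice 20 µL of sesame oil by the same route on the same day. There were 2 arrays of TP females, 2 of vehicle females, 1 of TP males and 1 of vehicle males, each with pooled RNA of 6 mice. In each female group the later array is called a replica, and the labels do not say that it came from other mice, so the p-values measure a spread between arrays that may be technical.

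The barrier depends on tight junctions sealed by claudin-5, on adherens junctions held by VE-cadherin, and on carriers that bring nutrients across the sealed layer. Vessel growth into the brain is driven by VEGF acting on its receptors and is stabilised by angiopoietins acting on the Tie receptors. In the newborn mouse brain the vascular network is still growing. In whole-brain RNA, fewer endothelial cells and less of an RNA in each cell cannot be told apart.

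Values are log2 expression levels made by the authors with RMA, so a difference of 1 is a doubling, and levels of different probe sets are not compared as amounts. Array medians lay between 5.69 and 5.74. The array labelled male TP stood apart in Xist, a long RNA made from the inactive X chromosome. The brightest Xist probe set read 10.45 there, against 5.29 on the male vehicle array and 12.61 to 12.83 on the 4 female arrays. The same array read 9.12 for the Y-linked gene Eif2s3y, against 9.16 on the male vehicle array and 2.84 to 3.09 on the female arrays. The brightest probe sets of the Y-linked genes Kdm5d and Uty read 6.80 and 5.54 on the male TP array. On the male vehicle array they read 7.17 and 4.84, and on the female arrays 2.44 to 2.66 and 2.57 to 2.69. The Xist level of the male TP array thus lay between those of the male vehicle and the female arrays. Its Eif2s3y level was near that of the male vehicle array, while its Kdm5d level was lower and its Uty level higher. The labels do not say whether its pool held any female RNA. Values given for TP males are those of the array so labelled, and the male differences, the male minus female values and the values over both sexes all carry this doubt. The female comparison does not use that array, and the comparison over both sexes without it is the female comparison. The male differences and the difference of TP effects between the sexes cannot be had without it.

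No detection call comes with these values. The rank of each level is given instead, and it does not show whether an RNA was present. For each member's brightest probe set, the mean level ranked between the 42.0th percentile of all probe sets, for Tie1, and the 94.0th, for Cldn5. Of the 16 probe sets, 1 lay below the 40th percentile of mean level (4.98 log2 units) and is called dim. It is the lower of the Cdh5 probe sets, 1422047_at, whose values of 2.65 to 3.55 lie near the array minima of 2.11 to 2.20.

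RefSeq promoters (mouse build GRCm38.p6) were matched by symbol for 8 members, all but Pecam1 and Cdh5, and the 250 bases before the start are given here for 3 of them. Flt1 is shown because all 4 of its probe sets had lower values in TP females with the groups apart, Slco1c1 because it was the only member with a positive TP difference in females and over both sexes, and Tek because its promoter was the only 1 of the 8 with a match to an androgen response half-site. Capitals mark motif matches on either strand.
Flt1 (chr5:147726012-147726261, minus strand): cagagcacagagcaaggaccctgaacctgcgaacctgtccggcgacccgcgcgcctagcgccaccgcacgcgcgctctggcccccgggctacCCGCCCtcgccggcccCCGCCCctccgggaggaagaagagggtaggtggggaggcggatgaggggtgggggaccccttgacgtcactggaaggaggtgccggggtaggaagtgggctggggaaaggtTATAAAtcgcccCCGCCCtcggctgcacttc
Slco1c1 (chr6:141524104-141524353, plus strand): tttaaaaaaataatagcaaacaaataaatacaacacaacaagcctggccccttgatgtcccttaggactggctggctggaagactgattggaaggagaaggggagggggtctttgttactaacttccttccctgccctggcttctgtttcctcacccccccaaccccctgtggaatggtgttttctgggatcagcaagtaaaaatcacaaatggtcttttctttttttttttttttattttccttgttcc
Tek (chr4:94739039-94739288, plus strand): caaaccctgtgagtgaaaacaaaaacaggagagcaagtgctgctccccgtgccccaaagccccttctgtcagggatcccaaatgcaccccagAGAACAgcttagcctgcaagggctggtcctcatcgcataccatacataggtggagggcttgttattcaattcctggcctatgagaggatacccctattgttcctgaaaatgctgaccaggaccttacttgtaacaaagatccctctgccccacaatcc
In Flt1 the capitals are 3 GC boxes (GGGCGG, read on the opposite strand) and a TATA box (TATAAA) that starts 31 bases before the start site. In Tek they are the half-site AGAACA, 158 bases before the start. The Slco1c1 window held none of the letters searched. GC boxes were in 4 of the 8 member promoters and in 32.7% of all 32851 mouse promoters of this length. The TATA box was in 1 of 8 against 12.4%, the half-site AGAACA in 1 of 8 against 16.1%, and the ETS motif CCGGAA in 1 of 8, that of Kdr, against 12%. The FOX-ETS motif AACAGGAA (2.25% of all promoters), the full androgen response element (AGAACA, 3 bases of any kind, then TGTTCT, 0.00913%), which contains the half-site, and the estrogen response element (GGTCA, 3 bases of any kind, then TGACC, 0.0639%) had 0 matches in the 8. These matches describe letters in the windows and do not show binding.

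The first question was whether TP changed these genes in the female brain, the subject of the series title. In TP females, probe sets of Pecam1, Cdh5, Flt1 and Kdr and the Slc2a1 probe set 1426600_at had lower values than in vehicle females, by 0.08 to 0.34 log2 units (differences of -0.34 to -0.08), with no overlap between the groups. Slco1c1 alone had higher values without overlap, and Cldn5, Tek, Tie1, Mfsd2a and the other Slc2a1 probe sets overlapped. None of the 16 member probe sets passed the limma threshold of an adjusted p under 0.05 over 45037 probe sets (smallest adjusted p = 0.581), where 0.0111% of all probe sets passed. At an unadjusted p under 0.05 there were 3 of 16, all lower in TP females. Over all probe sets 4.13% were lower at that level. The 3 were Flt1 1419300_at, Flt1 1440926_at and the dim Cdh5 1422047_at. By each gene's brightest probe set 0 of 10 members had an unadjusted p under 0.05, beside 1050 of 18193 genes in either direction. Of the 16 differences 15 were negative, against 54% of all probe sets, with a median of -0.10 log2 units against -0.01 over all probe sets. With each gene counted once, by its brightest probe set, the medians lay closer, at -0.041 for the members and -0.024 for all genes. In that count 9 of 10 members and 59.2% of all genes were negative. In 9 of the 16 both TP arrays lay below both vehicle arrays (21.3% of all probe sets), and in 1, that of Slco1c1, both lay above (17.1% of all).

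The same was asked over both sexes, with the sex difference taken out by the model. Pecam1, the brighter Cdh5 probe set, Slc2a1 1426600_at, Flt1 1451756_at and Flt1 1440926_at had lower values on every TP array than on any vehicle array, by differences of -0.31 to -0.15. Again 0 of 16 passed (limma, smallest adjusted p = 0.282), where 0.00888% of all probe sets did. At an unadjusted p under 0.05 there were 5, all lower with TP (6.28% of all probe sets were lower at that level). By each gene's brightest probe set there were 2 of 10 members, beside 1781 of 18193 genes in either direction. The differences were negative for 15 of 16 (55.8% of all), with a median of -0.14 against -0.02. In 5 of 16 the 3 TP arrays all lay below the 3 vehicle arrays (8.35% of all), and in 0 of 16 all lay above (6.83% of all). Among all genes taken by their brightest probe set 62.1% were negative, and among the 10 members taken in that way 9 were. The medians taken in that way were -0.073 for the members and -0.029 for all genes. Without the male TP array 15 of 16 differences were negative and 0 passed.

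**Figure D1:**
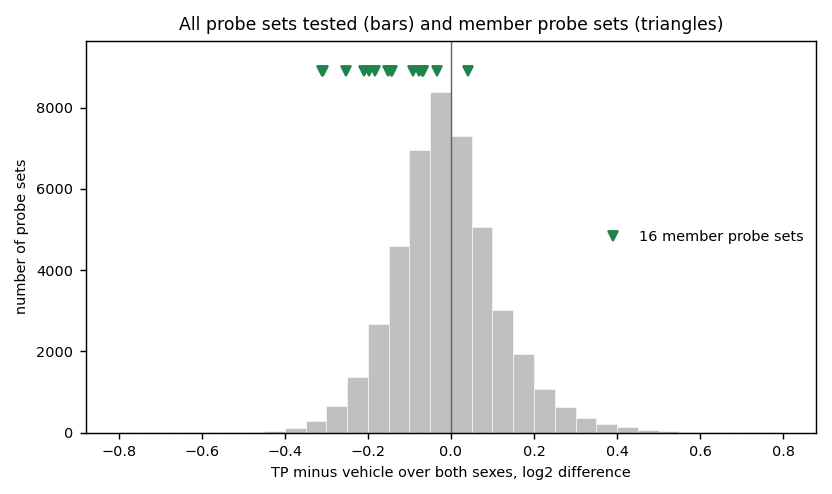
Log2 differences of TP minus vehicle over both sexes. Grey bars count all probe sets tested, the end bars also holding those beyond the axis, and green triangles at the top mark the 16 member probe sets, of which 15 lie left of 0 between -0.31 and -0.03 and 1, Slco1c1, lies at 0.04.

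In males, with 1 array for each treatment and no test, TP minus vehicle was negative for 16 of 16 probe sets, where 54.3% of all probe sets were negative. The male differences ran from -0.54 to -0.02 with a median of -0.16. The female and male differences come from separate arrays, though all 6 share the normalization.

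**Figure D2:**
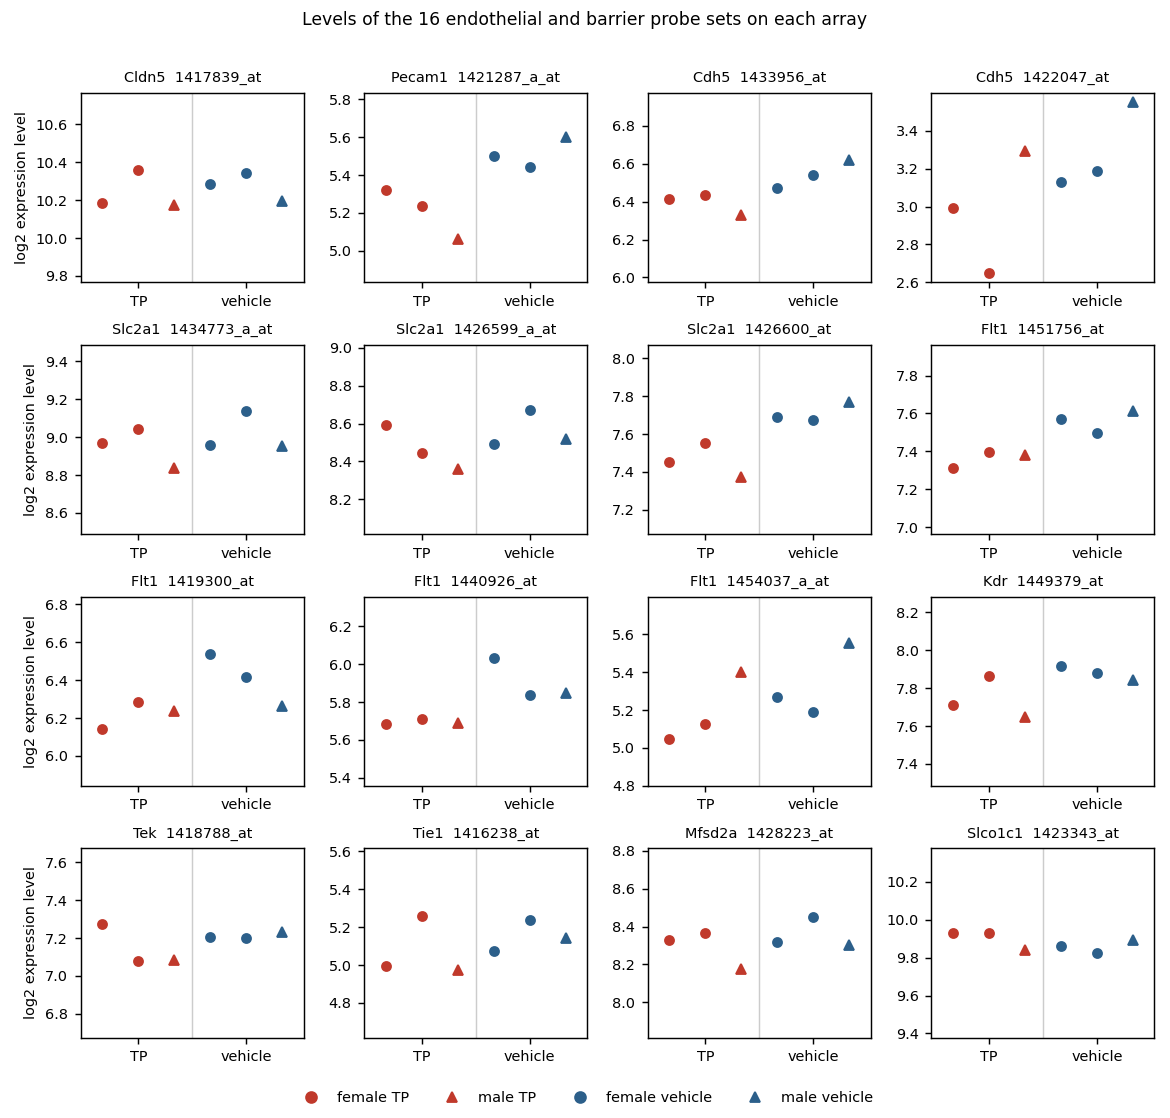
Log2 level of each member probe set on each of the 6 arrays, TP arrays in red left of the vehicle arrays in blue, with circles for females and triangles for males. Each panel spans 1 log2 unit around its own centre. The TP arrays all lie below the vehicle arrays for Pecam1, Cdh5 1433956_at, Slc2a1 1426600_at, Flt1 1451756_at and Flt1 1440926_at.

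Among the junction genes, Pecam1 had the largest TP difference over both sexes of the probe sets that are not dim. Its mean level ranked at the 45.4th percentile, near the cut for dim probe sets. Pecam1 encodes PECAM-1, an adhesion molecule of endothelial cells, platelets and leukocytes. Its level was 5.32 and 5.24 in TP females and 5.06 in the TP males, against 5.50 and 5.44 in vehicle females and 5.60 in the vehicle males. All TP arrays were thus below all vehicle arrays, and the male TP array was the lowest. Over both sexes Pecam1 averaged 5.21 ± 0.13 with TP and 5.52 ± 0.08 with vehicle (SD, n = 3 each). The log2 difference was -0.31 (SE 0.09, 95% interval -0.51 to -0.11), a level 1.24-fold lower with TP, and it did not pass (limma adjusted p = 0.282). In females alone it was -0.19 (SE 0.08, interval -0.39 to 0.01, limma adjusted p = 0.623), and in males -0.54.

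Cdh5 encodes VE-cadherin, the cadherin of endothelial adherens junctions. Its brighter probe set read 6.41 and 6.43 in TP females and 6.33 in TP males, against 6.47 and 6.54 in vehicle females and 6.62 in vehicle males. The treatments did not overlap, but the gap between the highest TP and the lowest vehicle array was small. The difference over both sexes was -0.15 (SE 0.07, interval -0.32 to 0.01, limma adjusted p = 0.438), and in females it was -0.08 (adjusted p = 0.838). The dim probe set 1422047_at read 2.99 and 2.65 in TP females and 3.29 in TP males, against 3.13 and 3.19 in vehicle females and 3.55 in vehicle males. There the male TP array lay above both female vehicle arrays, so the treatments overlapped, and the difference was -0.31 (SE 0.10, limma adjusted p = 0.303).

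Cldn5, which encodes claudin-5, the main claudin of the brain's endothelial tight junctions, varied by 0.19 log2 units over the 6 arrays. It read 10.19 and 10.36 in TP females and 10.17 in TP males, against 10.28 and 10.34 in vehicle females and 10.20 in vehicle males. The treatments overlapped in both the female comparison and the comparison over both sexes. The difference over both sexes was -0.03 (SE 0.07, limma adjusted p = 0.878), and its 95% interval of -0.20 to 0.13 is what these arrays allow.

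The receptors gave negative differences throughout, in 7 of 7 probe sets both in females and over both sexes. These probe sets come from 4 genes, and Flt1 alone has 4 of the 7. In females 5 of the 7, those of Flt1 and Kdr, had TP below vehicle without overlap, where 21.3% of all probe sets did. Over both sexes 2 of the 7 did so, both of Flt1, where 8.35% of all did. Tek and Tie1 overlapped in both comparisons, each at -0.03 in females. Flt1 encodes VEGFR1, a VEGF receptor that binds its ligand tightly and can act as a decoy. The brightest Flt1 probe set, 1451756_at, read 7.31 and 7.40 in TP females and 7.38 in TP males, against 7.57 and 7.50 in vehicle females and 7.62 in vehicle males. All 3 TP arrays were below all 3 vehicle arrays. Flt1 averaged 7.36 ± 0.05 with TP and 7.56 ± 0.06 with vehicle (SD, n = 3 each), a difference of -0.20 (SE 0.06, interval -0.35 to -0.05) that did not pass (limma adjusted p = 0.319).

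The other Flt1 probe sets had differences of the same sign over both sexes but differed in how the males stood. Probe set 1440926_at read 5.68 and 5.71 in TP females and 5.69 in TP males, against 6.03 and 5.84 in vehicle females and 5.85 in vehicle males, and again the treatments did not overlap (difference -0.21, SE 0.07, limma adjusted p = 0.345). Probe set 1419300_at read 6.14 and 6.28 in TP females and 6.24 in TP males, against 6.54 and 6.42 in vehicle females and 6.26 in vehicle males. Here the separation was in the females (-0.26, SE 0.09, limma adjusted p = 0.581) and the male arrays differed by -0.02. The dimmest of the 4 Flt1 probe sets, 1454037_a_at, read 5.05 and 5.12 in TP females and 5.40 in TP males, against 5.27 and 5.19 in vehicle females and 5.55 in vehicle males. Both male arrays lay above the female arrays of either treatment, and the TP difference over both sexes was -0.15 (SE 0.06, limma adjusted p = 0.415).

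Kdr encodes VEGFR2, the receptor through which VEGF drives endothelial growth. It read 7.71 and 7.86 in TP females and 7.65 in TP males, against 7.92 and 7.88 in vehicle females and 7.84 in vehicle males. The female groups did not overlap, while over both sexes TP female array 2 lay above the male vehicle array. The difference over both sexes was -0.14 (SE 0.07, interval -0.30 to 0.02, limma adjusted p = 0.455).

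Tek encodes TIE2, the receptor of the angiopoietins, and Tie1 encodes a related receptor that modulates TIE2 signalling. Tek read 7.27 and 7.08 in TP females and 7.09 in TP males, against 7.21 and 7.20 in vehicle females and 7.23 in vehicle males. The highest Tek value was that of TP female array 1 and the treatments overlapped (-0.07, SE 0.07, limma adjusted p = 0.754). Tie1 read 4.99 and 5.26 in TP females and 4.97 in TP males, against 5.08 and 5.24 in vehicle females and 5.14 in vehicle males. For Tie1 the TP female arrays held both a low and the highest value, and the difference was -0.08 (SE 0.09, interval -0.29 to 0.14, limma adjusted p = 0.776). Single TP female arrays moved it, to -0.013 without array 1 and -0.17 without array 2, and Tek to -0.13 and -0.023.

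The transporters had the smallest median difference over both sexes, at -0.07 over 5 probe sets. The median was -0.15 over the 7 receptor and -0.23 over the 4 junction probe sets. These medians count every probe set, so Slc2a1, Flt1 and Cdh5 weigh more than the other genes. The junction probe sets include the dim Cdh5 1422047_at at -0.31, while Cldn5, also of the junctions, was at -0.03. Slc2a1 encodes GLUT1, the glucose transporter of the barrier, which astrocytes and red cells also carry. Its 3 probe sets did not behave alike. Probe set 1426600_at read 7.45 and 7.55 in TP females and 7.37 in TP males, against 7.69 and 7.67 in vehicle females and 7.77 in vehicle males, and all TP arrays lay below all vehicle arrays. It averaged 7.46 ± 0.09 with TP and 7.71 ± 0.05 with vehicle (SD, n = 3 each), a difference of -0.25 (SE 0.07, interval -0.42 to -0.08, limma adjusted p = 0.291).

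The brighter Slc2a1 probe sets overlapped between the treatments. Probe set 1434773_a_at read 8.97 and 9.04 in TP females and 8.84 in TP males, against 8.96 and 9.14 in vehicle females and 8.95 in vehicle males, a difference of -0.07 (SE 0.07, limma adjusted p = 0.750). Probe set 1426599_a_at read 8.59 and 8.45 in TP females and 8.36 in TP males, against 8.49 and 8.67 in vehicle females and 8.52 in vehicle males, a difference of -0.09 (SE 0.08, limma adjusted p = 0.667). Without vehicle female array 1 these became -0.13 and -0.15, and without vehicle female array 2 -0.022 and -0.050. The male TP array was the lowest for all 3.

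Mfsd2a encodes the carrier of lysophosphatidylcholine-bound omega-3 fatty acids that also keeps transcytosis across the barrier low. It read 8.33 and 8.37 in TP females and 8.17 in TP males, against 8.32 and 8.45 in vehicle females and 8.30 in vehicle males. The treatments overlapped (-0.07, SE 0.07, interval -0.23 to 0.09, limma adjusted p = 0.717). Slco1c1 encodes OATP1C1, a thyroxine transporter of mouse brain endothelium. It read 9.93 and 9.93 in TP females and 9.84 in TP males, against 9.86 and 9.82 in vehicle females and 9.89 in vehicle males. Slco1c1 was thus higher with TP in females without overlap (0.09, SE 0.08, limma adjusted p = 0.822) and 0.05 lower with TP in the males (log2 difference -0.05), and over both sexes the difference was 0.04 (SE 0.06, limma adjusted p = 0.838).

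**Figure D3:**
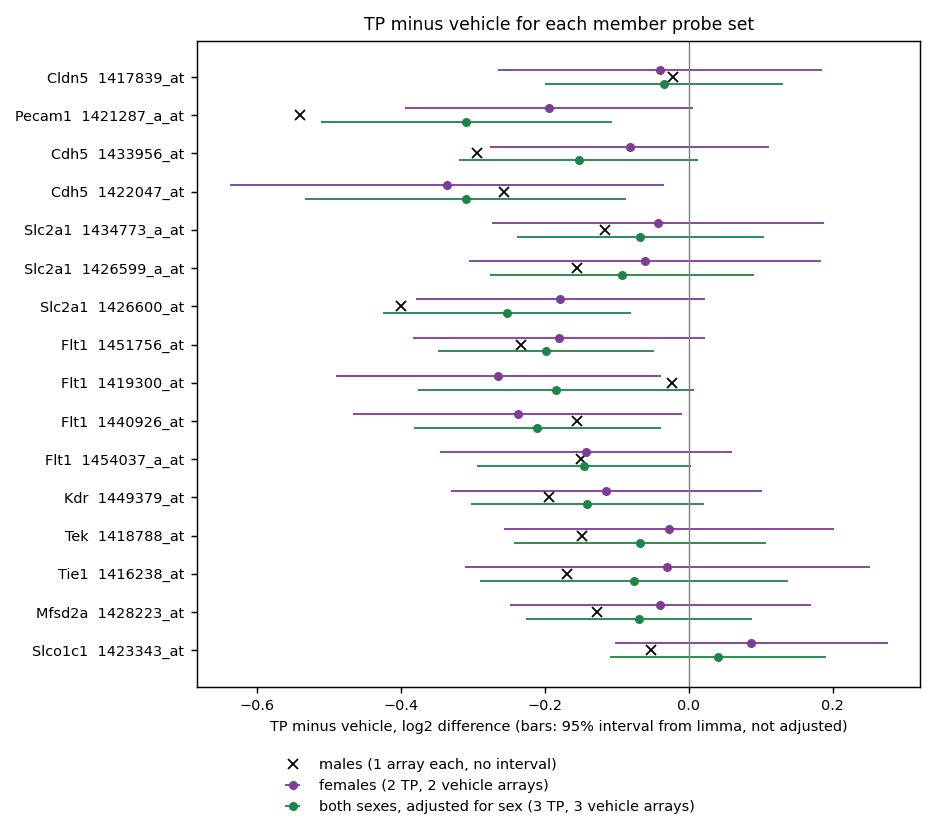
TP minus vehicle for each member probe set in log2 units, for females (purple) and for both sexes adjusted for sex (green) with 95% intervals from limma that are not adjusted for the number of probe sets, and for males (black crosses, 1 array each). All male crosses lie left of 0, and over both sexes the intervals of Pecam1, Cdh5 1422047_at, Slc2a1 1426600_at, Flt1 1451756_at and Flt1 1440926_at lie wholly below 0.

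Whether the TP difference was itself different in females and males was tested in a fit with each sex and treatment as its own group, where the spread comes from the female arrays and the male arrays are taken to share it. None of the 16 passed (limma, smallest adjusted p = 1.00), where 0.0155% of all probe sets did, and 0 had an unadjusted p under 0.05 (4.93% of all). The smallest unadjusted p was that of Pecam1, with a female minus male difference of TP effects of 0.35 (SE 0.14, interval -0.00023 to 0.69). Intervals of this width mean that sex-specific TP effects of this size could not be told from none.

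Between the sexes, adjusting for treatment, 0 of 16 passed (limma, smallest adjusted p = 0.305), where 0.0222% of all probe sets did, and 2 had an unadjusted p under 0.05 (12.1% of all). These were Flt1 1454037_a_at, 0.32 higher in males (SE 0.07, limma adjusted p = 0.305), and the dim Cdh5 1422047_at, 0.43 higher in males (SE 0.10, same adjusted p). In both, the 2 male arrays lay above the 4 female arrays (8.58% of all probe sets). Without the male TP array their differences were 0.33 and 0.39. Slc2a1 1434773_a_at (-0.13, SE 0.08) and Mfsd2a (-0.13, SE 0.07) had both male arrays below all female arrays (11.2% of all, and 4385 of the 27022 that are not dim). Those differences were -0.10 and -0.09 without the male TP array. Other probe sets of Flt1 and Cdh5 did not follow their dimmest ones, with male minus female values of 0.05, -0.09 and -0.05 for Flt1 and 0.01 for Cdh5. In all, 12 of 16 differences were negative (52.1% of all, 63.6% of the probe sets that are not dim), and 8 of 16 without the male TP array.

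The members varied together in part. On the male TP array 9 of the 16 probe sets had their lowest value and 0 their highest, where 21.0% of all probe sets were lowest and 15.3% highest there. The male vehicle array held the highest value of 6 and the lowest of 0, where 20.0% of all probe sets were highest and 18.2% lowest there. Setting each member's brightest probe set against the mean of the other 9 over the 6 arrays, Pearson's r was 0.88 for Kdr, 0.85 for Cdh5, 0.77 for Mfsd2a and 0.76 for Pecam1. It was 0.32 for Tek and -0.07 for Slco1c1. These arrays share their normalization and differ in treatment and sex, so the values are a description.

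Outside the members, the genes whose brightest probe set followed the members' mean most closely over the 6 arrays, among 13175 genes that were not dim, were Tex14, Lgals3, Fn1, Lbh and Ubap2l, with r of 0.999, 0.998, 0.995, 0.993 and 0.992. With 6 arrays such values are common: 409 genes, or 3.1%, had r over 0.9. Fn1, the gene of the extracellular matrix protein fibronectin, read 8.99 and 9.02 in TP females and 8.91 in TP males, against 9.04 and 9.08 in vehicle females and 9.07 in vehicle males.

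Other genes of the vessels and the barrier, and markers of other cells of the brain and blood, were read from 11 lists of 156 entries in all, of which 149 matched a measured gene, each taken by its brightest probe set. In these lists 0 genes passed in any of the 4 tested comparisons by limma (smallest adjusted p = 0.238). The counts of negative differences below stand beside shares over all genes, also by brightest probe set. Those shares were 59.2% in females and 62.1% over both sexes. Of 18 VEGF and angiopoietin pathway genes 11 were negative in females (median -0.02) and 15 over both sexes (median -0.04). Vegfa, the main ligand of the Kdr receptor, had 0.13 in females and 0.18 over both sexes (SE 0.08, adjusted p = 0.430). Nrp1, a VEGF co-receptor, had 0.080 and 0.11 in the same 2 comparisons, and Aplnr, the apelin receptor, had -0.08 in both. Of 13 genes of Wnt and norrin signalling, which induces barrier properties, 9 were negative in females (median -0.03) and 11 over both sexes (median -0.06). Wnt7a, a ligand made by neural cells, had -0.12 in females and -0.16 over both sexes, and Fzd4, the norrin receptor, had -0.11 and -0.14. Lrp5, a co-receptor read by a dim probe set, had 0.0035 in females and -0.12 over both sexes.

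Of 23 other endothelial genes 17 were negative in females (median -0.06) and 16 over both sexes (median -0.07). Fli1, an ETS transcription factor of endothelial and blood cells, read 6.80 and 6.73 in TP females and 6.66 in TP males, against 6.40 and 6.46 in vehicle females and 6.43 in vehicle males. All TP arrays lay above all vehicle arrays, and the difference was 0.34 in females (limma adjusted p = 0.543) and 0.30 over both sexes (SE 0.06, limma adjusted p = 0.238). Klf2, a factor induced by blood flow, had -0.24 in females and -0.29 over both sexes (SE 0.08, adjusted p = 0.273). Sox18, a transcription factor of growing vessels, had -0.20 in both comparisons (SE 0.07 and adjusted p = 0.346 over both sexes). Of 25 other transporter and junction genes 12 were negative in females (median 0.00024) and 17 over both sexes (median -0.05). Tjp1, of the tight junction scaffold ZO-1, had 0.17 in females and 0.16 over both sexes, the efflux pump gene Abcc4 had -0.21 and -0.16, and Cav1, of caveolae, had 0.17 and 0.13.

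Markers of other cells were read beside these values. Of 14 pericyte and smooth muscle markers 7 were negative in females (median -0.01) and 9 over both sexes (median -0.04). Des, of the muscle filament desmin, had -0.26 in females and -0.27 over both sexes, Tagln -0.19 and -0.14, and Acta2, of smooth muscle actin, -0.12 and -0.11. Of 10 meningeal fibroblast markers 5 were negative in females (median 0.00015) and 8 over both sexes (median -0.06). Col3a1, of a fibrillar collagen, had -0.19 in females and -0.18 over both sexes, Aldh1a2 -0.21 and -0.16, and Foxc1 -0.25 and -0.16. Of 9 choroid plexus markers 7 were negative in both comparisons (median -0.05 in females and -0.08 over both sexes). The water channel gene Aqp1 had -0.15 in females and -0.20 over both sexes, the dim Slc4a5 -0.14 and -0.23, and Kcne2 0.14 and 0.23.

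The counts of astrocyte markers, of microglia and macrophage markers and of neuron markers differed between the comparisons, and those of erythroid and platelet markers did not. Of 9 astrocyte markers 4 were negative in females (median 0.0088) and 6 over both sexes (median -0.01), with Gfap at -0.30 and -0.24, Aldh1l1 at -0.12 in both and Gja1 at 0.080 and 0.10. Of 10 microglia and macrophage markers 4 were negative in females (median 0.02) and 7 over both sexes (median -0.03), with Mrc1 at -0.04 and -0.11, P2ry12 at 0.14 and 0.08 and Ptprc at 0.13 and 0.11. Of 10 neuron markers 7 were negative in females (median -0.02) and 4 over both sexes (median 0.01), with Map2 at 0.06 and 0.09, Syt1 at -0.05 and -0.08 and Snap25 at 0.03 and 0.05. Of 8 erythroid and platelet markers 3 were negative in both comparisons (median 0.09 in females and 0.08 over both sexes), with Hbb-b2 at 0.29 and 0.27, Slc4a1 at 0.29 and 0.22 and Alas2 at 0.32 and 0.22. None of these genes passed, and the values are log2 differences of TP minus vehicle, the female value first.

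By array, the members' brightest probe sets averaged 7.55 to 7.70 on the TP arrays and 7.72 to 7.76 on the vehicle arrays. The treatments did not overlap, but the gap was small, from 7.697 on TP female array 2 to 7.717 on vehicle female array 1. The Wnt and norrin genes had means of 7.343 to 7.409 with TP and 7.406 to 7.467 with vehicle, a slight overlap. The other endothelial genes had means of 7.11 to 7.28 with TP and 7.18 to 7.31 with vehicle, and the fibroblast markers 9.01 to 9.16 with TP and 9.15 to 9.23 with vehicle, and in both lists the treatments overlapped. The pericyte and smooth muscle markers stood at 6.98 to 7.07 with TP and 7.05 to 7.09 with vehicle, and the choroid plexus markers at 7.05 to 7.20 with TP and 7.12 to 7.24 with vehicle. The erythroid and platelet markers stood at 5.7304 to 5.8000 with TP and 5.6333 to 5.7345 with vehicle. In the pericyte, choroid plexus and erythroid lists the treatments overlapped too. Of the 12 lists, the members included, 10 had their lowest mean on the male TP array. The part of these cell types in the members' values was not tested.

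**Figure D4:**
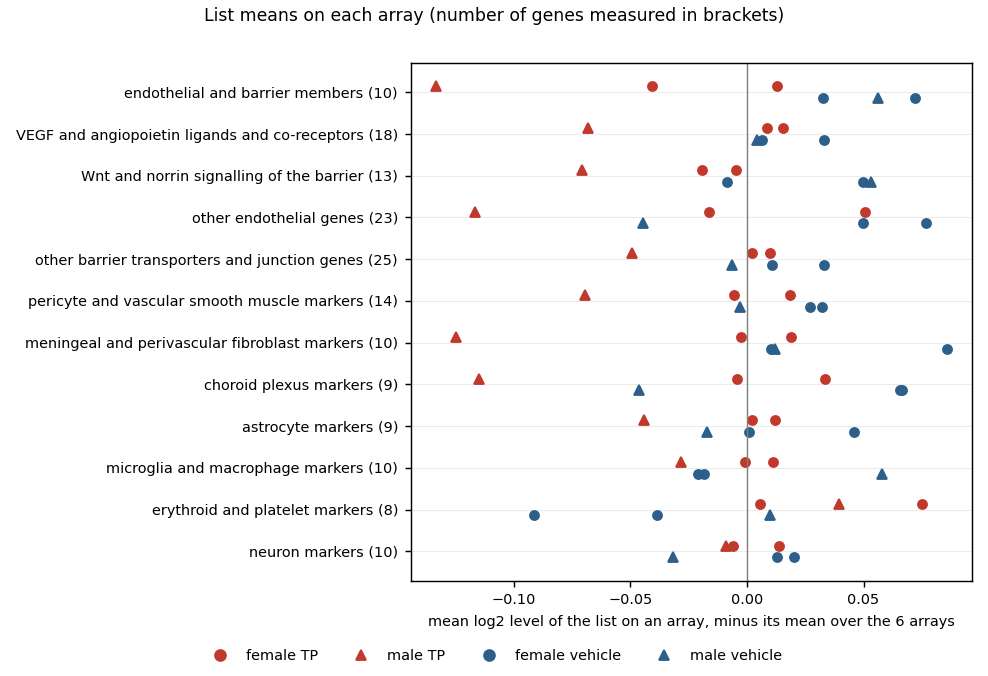
Mean log2 level of each gene list on each array, less the list's mean over the 6 arrays, with TP arrays in red above the vehicle arrays in blue, circles for females and triangles for males. The male TP array is the lowest for 10 of the 12 lists. For the 10 endothelial and barrier genes the 3 TP arrays lie left of the 3 vehicle arrays by a narrow gap.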

How the data were processed

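Each array was hybridised with biotin-labelled RNA, per the labels' protocols. The deposited values are log2 expression levels that the authors made with RMA, per the submitters' processing notes, and its version and the genome build are not given in the sources used here. RMA normalizes arrays together, so levels are relative to all probe sets, and no detection call comes with them. The number of arrays limits the precision.

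Genes were named through the platform annotation: 34945 probe sets had 1 gene symbol, 932 several and 9160 none, and 64 array controls were left out. Of the list entries, 4 were matched through older symbols in the RefSeq table of GRCm38.p6. Tests used limma 3.58.1 under R 4.3.3 (lmFit, eBayes without an intensity trend, two-sided) over 45037 probe sets, with Benjamini-Hochberg adjustment and a threshold of 0.05. The fit was run on simulated data to see that it returned the size of known shifts. Those shifts were larger than any tested difference of a member, so the run does not show how well differences of the members' size would be found. Figures used Python 3.11.15, pandas 2.3.3 and matplotlib 3.10.9.

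All member probe sets are named. From each other list the text names genes past the threshold or else the 3 with the smallest p over both sexes, and 5 genes by their correlation with the members' mean. Members and lists were chosen with earlier results of these data known. Alternatives were 1 probe set per gene or their mean, no dim probe sets, renormalization, an intensity trend, a replicate block, other arrays in the fit and leaving out each array.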

Additional observations from a re-analysis of the deposited data

Results flagged for a closer look

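Xist signal on the array labelled male TP was above that of the male vehicle array, which serves as its control. Xist is not a member, but this array enters the members' values over both sexes, in males, between the sexes and for the difference of TP effects, and the labels do not say whether its pool held female RNA. The Xist probe sets read 10.45, 8.85 and 7.23 on the male TP array, against 5.29, 3.003 and 2.87 on the male vehicle array. No group holds 4 or more arrays, so arrays far from the rest of their group were not looked for, and no member differed between the sexes in its TP effect past the threshold.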

How the results depend on the processing

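Under every alternative run, 0 member probe sets passed in any of the 4 tested comparisons (49 of 49 counts). The smallest adjusted p of a member was 0.347 in females (without vehicle female array 2), 0.126 over both sexes and 0.152 between the sexes (both with the intensity trend). Of 435 single values 426 kept their direction, and the 9 exceptions arose on leaving out a female array. In females these ranges were, over the 4 arrays left out in turn, -0.13 to 0.047 for Cldn5, -0.16 to 0.10 for Tie1, -0.13 to 0.070 for Tek, -0.11 to 0.026 for Mfsd2a, -0.13 to 0.049 for Slc2a1 1434773_a_at and -0.15 to 0.029 for Slc2a1 1426599_a_at, and over both sexes Cldn5 ranged from -0.082 to 0.017. Positive values came without TP female array 1 for Cldn5 and Tie1, without TP female array 2 for Tek and Slc2a1 1426599_a_at, and without vehicle female array 2 for Tie1, Mfsd2a and both Slc2a1 probe sets. Without moving to the other sign, values moved by over 1.5 times over both sexes for Pecam1 (-0.37 to -0.19), Cdh5 1433956_at (-0.19 to -0.082), Cdh5 1422047_at (-0.40 to -0.20), Slc2a1 1434773_a_at (-0.13 to -0.022), Slc2a1 1426599_a_at (-0.15 to -0.050), Flt1 1419300_at (-0.26 to -0.12), Tek (-0.13 to -0.023), Tie1 (-0.17 to -0.013), Mfsd2a (-0.12 to -0.040) and Slco1c1 (0.017 to 0.087) and in females for Cdh5 1433956_at (-0.12 to -0.048), Cdh5 1422047_at (-0.51 to -0.16), Flt1 1440926_at (-0.33 to -0.14) and Kdr (-0.19 to -0.037). The count of negative members ranged from 11 (without vehicle female array 2) to 15 in females, from 14 to 15 over both sexes, from 8 to 12 between the sexes and from 3 to 4 for the difference of TP effects on leaving out an array, and the female minus male difference was negative for 1 of 10 members by the brightest probe set, against 4 of 16. Renormalized by quantiles, 9 of 16 male minus female values were negative, against 12.

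Counts over all probe sets moved more. In females 5 passed (4 higher, 1 lower), against 3 with probe sets averaged per gene, 1 without dim probe sets, 8 after quantile normalization (4 higher, 4 lower), 13 after centring on medians (6 higher, 7 lower) and 37 with the intensity trend (25 higher, 12 lower), and 0 without any 1 of the arrays (range 0 to 0). With the brightest probe set per gene 5 passed, 1 higher and 4 lower. Over both sexes 4 passed, against 0 with the brightest probe set, 0 with the mean, 1 without dim probe sets and 138 with the trend, and 0 to 5 without 1 array. Between the sexes 10 passed, against 3 with the brightest probe set, 3 with the mean, 1 without dim probe sets, 49 with the trend and 17 on TP arrays alone, and 7 to 19 without 1 array (19 without the male vehicle array). For the difference of TP effects 7 passed, against 2 with the brightest probe set, 2 with the mean, 4 without dim probe sets and 12 with the trend. The cause was not tested.

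In each female group the later array is labelled a replica of the earlier array. The labels do not say whether the replica came from other mice. The correlation of original minus replica deviations between TP and vehicle females was 0.11 over probe sets. That value compares the treatments, so it cannot tell whether an original and its replica share mice. With the replicate block, 2 probe sets passed in females and 2 over both sexes, 0 of them members, and 15 of 16 members stayed negative in each. The difference of TP effects could not be fitted without either male array.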
